A study of Mus musculus with 3 samples.

Results

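Mast cells and basophils of the mouse ovary are described here side by side, as the cells that the authors' deposited cell table names "Mast cell" or "Basophil". The rule took 82 of 14353 cells, 69 of them mast cells and 13 basophils. The cells came from C57BL/6 females, whose ovaries were profiled by single-cell RNA sequencing in 3 multiplexed pools (A, B and C), each of which held cells of all 3 conditions. Young mice were 3 months old and untreated. Aged mice were untreated, and their age is not stated for these cells. Metformin mice were aged mice given 350 mg/kg/day of the drug in drinking water for 6 months from the age of 14 months. Each condition is a single suspension, made by joining 3 left ovaries before dissociation, so a condition is 1 sample. Its cells in the 3 pools were taken as technical repeats, which the labels do not state. No test between conditions was possible. The intervals in brackets are exact 95% intervals that cover counting error only. The suspension was strained and flow-sorted with a gate not given in the sources used here, so shares of cells depend on recovery as well as on the tissue.

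Mast cells and basophils are the blood-derived cells that carry the high-affinity receptor for IgE and store histamine. Mast cells mature in tissues, depend on the receptor Kit, and pack their granules with chymases, tryptases and carboxypeptidase A3 bound to heparin. Basophils finish their development in the marrow, circulate, and enter tissues in small numbers. They are known as a source of interleukin 4 and in mice are marked by the granule protease Mcpt8. Both react to IgE and to cytokines by releasing stored mediators and by making lipids, chemokines and cytokines anew.

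The granule proteases are a classic difference between these lineages, and several of their genes are neighbours. On mouse chromosome 14 (build GRCm38.p6, RefSeq), Cma1, a chymase, lies at 55941451 to 55944675, Mcpt4, the main mouse connective tissue chymase, at 56059744 to 56062310, Mcpt8 at 56082163 to 56085499, and Gzmb, granzyme B, at 56258836 to 56262334. The stretch from Cma1 to Gzmb spans 320.884 kb, and 19.853 kb separate Mcpt4, a mast cell gene in these data, from Mcpt8, a basophil gene. Cpa3, carboxypeptidase A3, lies apart on chromosome 3 (20215616 to 20242209). The promoters of these 4 protease genes are shown because their RNA separates the classes. Each is the window of RefSeq's promoter table, from 250 bases before to 50 bases after a gene start (300 bases, 5′ to 3′), and capitals mark GATAA or its reverse complement TTATC, the core that GATA factors such as Gata2 bind.
Cpa3 promoter, chr3:20242132-20242431, minus strand: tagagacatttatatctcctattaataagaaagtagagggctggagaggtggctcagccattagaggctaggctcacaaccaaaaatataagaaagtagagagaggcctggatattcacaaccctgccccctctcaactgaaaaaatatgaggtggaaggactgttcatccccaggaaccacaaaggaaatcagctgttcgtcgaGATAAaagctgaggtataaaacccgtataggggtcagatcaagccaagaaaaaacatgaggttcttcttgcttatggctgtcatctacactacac
Cma1 promoter, chr14:55944626-55944925, minus strand: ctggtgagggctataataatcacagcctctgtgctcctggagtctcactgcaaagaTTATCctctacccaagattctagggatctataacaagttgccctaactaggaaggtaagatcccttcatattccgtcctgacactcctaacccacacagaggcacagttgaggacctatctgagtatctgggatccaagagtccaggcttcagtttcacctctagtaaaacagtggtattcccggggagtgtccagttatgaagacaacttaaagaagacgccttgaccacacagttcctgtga
Mcpt4 promoter, chr14:56062261-56062560, minus strand: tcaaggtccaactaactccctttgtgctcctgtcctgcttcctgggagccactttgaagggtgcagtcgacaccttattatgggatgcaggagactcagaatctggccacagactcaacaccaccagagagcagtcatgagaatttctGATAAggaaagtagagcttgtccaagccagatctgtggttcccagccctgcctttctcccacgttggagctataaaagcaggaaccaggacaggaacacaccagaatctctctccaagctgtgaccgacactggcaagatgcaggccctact
Mcpt8 promoter, chr14:56085148-56085447, minus strand: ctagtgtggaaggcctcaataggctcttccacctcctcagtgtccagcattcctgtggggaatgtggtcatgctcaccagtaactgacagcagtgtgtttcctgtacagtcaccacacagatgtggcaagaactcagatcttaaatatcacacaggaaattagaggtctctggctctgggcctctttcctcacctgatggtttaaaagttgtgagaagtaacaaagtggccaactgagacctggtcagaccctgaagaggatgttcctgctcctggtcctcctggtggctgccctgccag
For Cpa3 and Mcpt8 the start used lies inside the gene span given above, so another transcript begins further upstream. For Cpa3 that upstream start (20242209) lies within the window shown, so its promoter was searched in part. For Mcpt8 it (56085499) lies beyond the window, and its promoter was not searched. The core was found 1 time each in the Cpa3, Cma1 and Mcpt4 windows and in the Mcpt8 window 0 times. It is a common word: 25.8% of 27025 RefSeq promoters of this length hold it on either strand. The letters CATGTG (either strand, in 14.1% of promoters) and CACGTG (7.24%), which the mast cell factor Mitf can bind, were in none of the 4 windows.

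The 69 mast cells held 138109 UMIs (unique molecular identifiers, each standing for 1 captured RNA molecule), with a median of 1369 per cell and a range of 503 to 8953. The 13 basophils held 27479 UMIs, with a median of 1900 (1251 to 3204). These are shallow cells beside the series median of 5278 in young, 3034 in aged and 2752 in metformin cells. No cell of either class shared its barcode with a cell of another pool, whereas 52 cells of the series did. In the deposited final clustering all 69 mast cells were in 1 cluster and all 13 basophils in another. In a coarser deposited clustering the 13 basophils shared a cluster with 325 neutrophils.

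The deposited names were checked against marker genes. Levels are given as CPM, UMIs of the gene per 1e+06 UMIs of the summed cells, and detection as the number of cells with at least 1 UMI. Cpa3 had 1543 UMIs in 69 of 69 mast cells and 23 UMIs in 8 of 13 basophils, 11172 against 837 CPM, and at most 27.2 CPM in any of the other 18 classes. Kit had 100 UMIs in 40 of 69 mast cells (724 CPM) and 0 in basophils. Mcpt8 had 23 UMIs in 7 basophils (837 CPM) and 9 UMIs in 3 mast cells (65.2 CPM), 7 of which were in 1 mast cell of the metformin condition. T cells, which should lack these genes, set the level of free RNA: of 1675 T cells (median 1982 UMIs), 1.61% had a UMI of Cpa3, 0.597% of Kit and 0% of Mcpt8. Detection of Cpa3 and Kit in mast cells and of Mcpt8 in basophils was thus far above that background.

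Of all UMIs of a gene in the series, the 82 cells held 91.4% for Mcpt8, 85.9% for Cpa3, 85.2% each for Cma1 and for Tpsb2, the main mast cell tryptase, and 96.2% for Tpsg1, a membrane-anchored tryptase. Kit was much less restricted, with 13.1% of its UMIs in these cells. Its next highest levels were 64.7 CPM in vascular endothelium and 44.4 CPM in dendritic cells of class I. Of the mast cells, 68 of 69 had UMIs of Cpa3, Cma1 and Tpsb2 together. Of the basophils, 10 had a UMI of Mcpt8 or Cpa3 and 3 had neither.

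The basophil label rests on fewer molecules, so other white cells were looked for in it. Of 7 neutrophil markers measured, 6, among them S100a8, S100a9 and Csf3r, had 0 UMIs in basophils, and Cxcr2, a chemokine receptor, had all 10 UMIs. The 8 T cell markers and the 8 NK and innate lymphoid markers measured were at 0 in basophils. Other lists were not at 0. B and plasma cell markers had 8 UMIs in 4 basophils, 291 CPM against 181 in mast cells. Macrophage and monocyte markers and dendritic cell markers had 3 UMIs in 3 basophils each, and megakaryocyte markers 3 UMIs in 2. Of 4 eosinophil markers measured, Ccr3 alone had UMIs, 4 in basophils and 5 in mast cells. The classic basophil protease Prss34 was not analysed here. Of 12 basophil markers, 9 had an interval of the mast to basophil ratio wholly below 0, and of 16 mast cell markers 12 had one wholly above 0 and 1, Hdc, below. Over all 9509 genes with a UMI in either class, 2.71% had an interval above 0 and 4.67% below. The values go with the labels of both classes. Those labels were made from these same counts, and the lists were chosen with earlier results known. The match is therefore a description and no test of the labels.

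**Figure D1:**
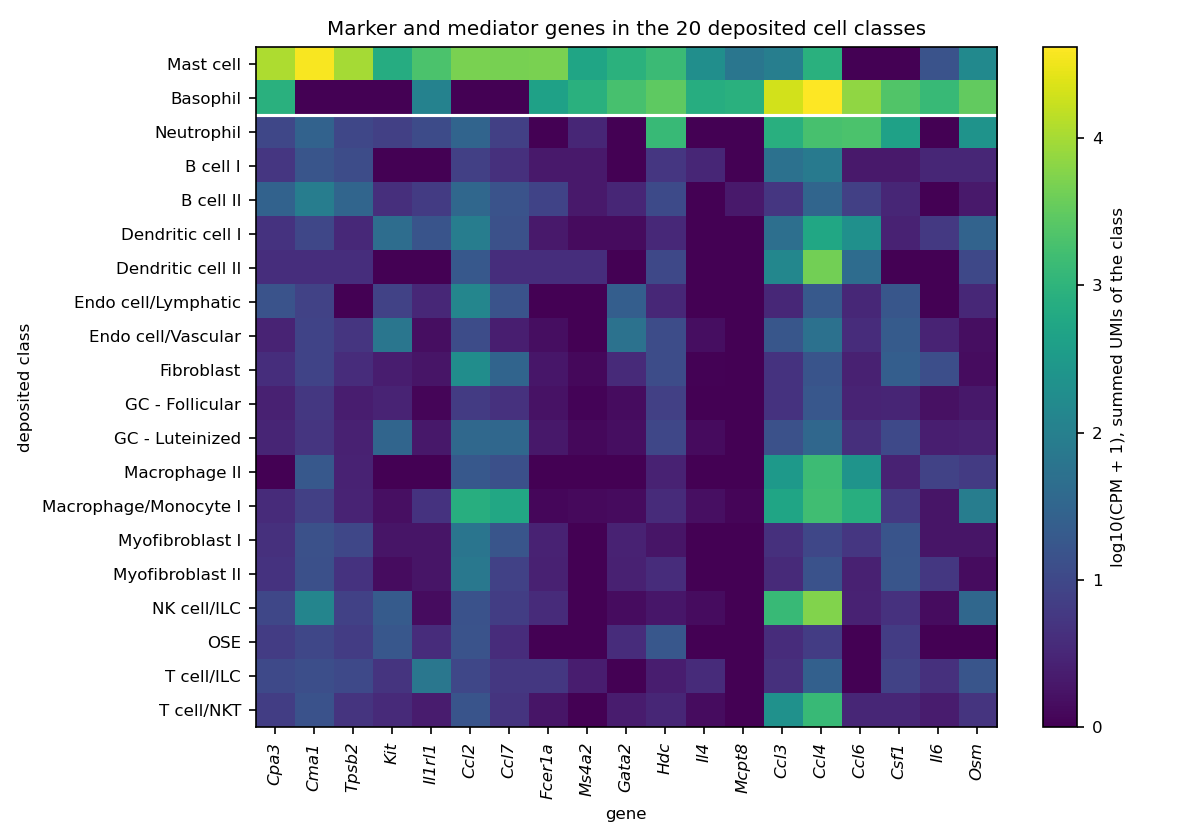
Level of 19 marker and mediator genes (columns) in the 20 deposited cell classes (rows), as log10 of CPM + 1 from the summed UMIs of each class. The mast cell row is bright from Cpa3 to Fcer1a and the basophil row from Ccl3 to Osm, while most other rows stay near 0 for Fcer1a, Ms4a2, Il4 and Mcpt8.

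Mast cells made up 0.171% of young cells (13 of 7620, 0.0909 to 0.292), 0.873% of aged cells (26 of 2979, 0.571 to 1.28) and 0.799% of metformin cells (30 of 3754, 0.540 to 1.14). In pools A, B and C the share was 0.240%, 0.120% and 0.152% in young, 0.571%, 0.745% and 1.47% in aged, and 0.763%, 0.872% and 0.779% in metformin. Each of the 3 pools had its lowest share in the young condition. The aged and metformin pools overlapped each other.

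The ratio of aged to young was 5.12 (2.54 to 10.8), and that of metformin to young 4.68 (2.37 to 9.78). Without pool A the aged to young ratio was 7.93 (3.19 to 22.3). Within pools A, B and C alone it was 2.38 (0.684 to 8.56), 6.20 (1.42 to 37.2) and 9.67 (2.93 to 41.2). The interval of pool A includes 1. The ratio of metformin to aged was 0.916, with an interval of 0.523 to 1.61 that includes 1. Among immune cells alone, mast cells were 0.422% of young, 2.33% of aged and 1.52% of metformin cells, and the aged to young ratio was 5.51 (2.73 to 11.7). Without 9 mast cells of mixed signal, defined below, it was 6.54 (2.92 to 16.1) among all cells. A share can move because other classes, or the recovery of cells, moved: the number of mast cells per ovary was not measured.

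Basophils were too few for a comparison of conditions. They were 5 young cells (0.0656%, 0.0213 to 0.153), 4 aged cells (0.134%, 0.0366 to 0.343) and 4 metformin cells (0.107%, 0.0290 to 0.273). The aged to young ratio of 2.05 had an interval of 0.406 to 9.51. Pool B held 1 young basophil, 0 among 940 aged cells, and 0 among 1032 metformin cells. A count of 0 taken as at most 3 cells allows shares of up to 0.319% and 0.291%, and the exact intervals reach 0.392% and 0.357%. There were 2.6 mast cells for each basophil in the young condition, 6.5 in the aged and 7.5 in the metformin condition.

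**Figure D2:**
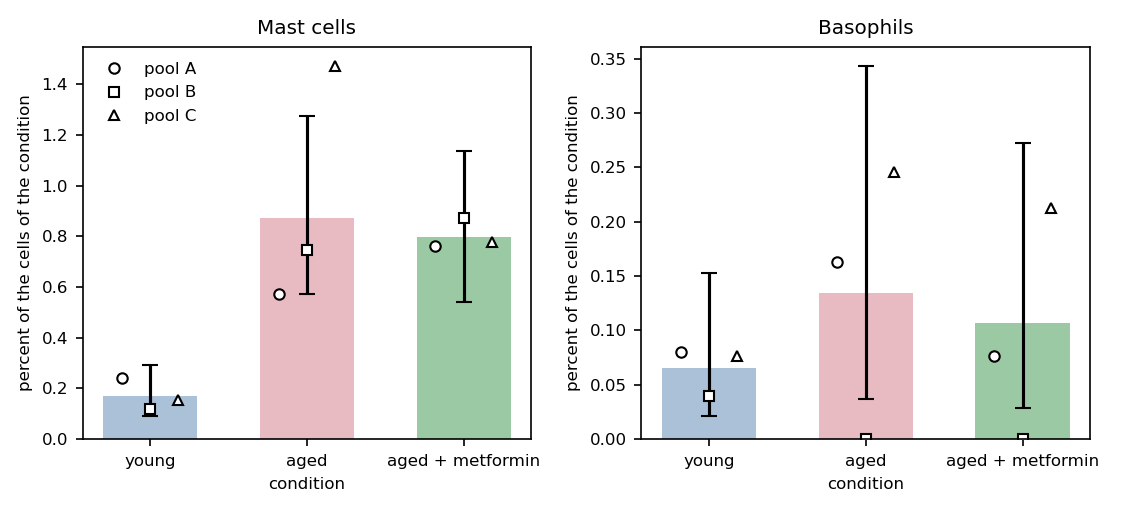
Mast cells (left) and basophils (right) as a percent of all cells of a condition. Bars are all pools together with exact 95% intervals, and symbols are the 3 pools. The young mast cell share is 0.171% against 0.873% in aged and 0.799% in metformin, and the basophil intervals overlap.

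The classes were then set against each other gene by gene, on UMIs summed over all conditions. The classes were themselves made from these genes, so this is a description and no test. Among 406 genes with at least 50 UMIs over both classes, the interval of the log2 ratio lay beyond 1 for 57 genes higher in mast cells (14.0%) and for 48 higher in basophils (11.8%). Without pool C, which holds 7 of the basophils, the counts were 30 and 24. With no minimum, the interval lay above 0 in 258 of 9509 genes (2.71%) and below 0 in 444 (4.67%). These last shares are the background for the counts of list members below, but it is a low one for genes with many UMIs. Of the 9509 genes, 1110 had at least 20 UMIs, and the rest can seldom exclude 0. With fewer UMIs in all, basophils need fewer of a gene for an interval that excludes 0. Bhlhe40, with 20 UMIs in mast cells and 0 in basophils, had an interval that includes 0. C3ar1, with 1 in mast cells and 5 in basophils, had one below 0. Counts of list members with few UMIs thus lean toward basophils. Scaling by the median gene ratio in place of the total moved every log2 ratio by -0.36. It reversed the sign of the list medians for IgE receptor signalling, histamine and serotonin, eicosanoid synthesis and granule matrix, which were all near 0.

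Granule proteases came first among the genes higher in mast cells. Cma1 had 5088 UMIs in mast cells, 3.68% of all their UMIs, and 0 in basophils, so that its level was at least 337-fold higher in mast cells when 3 UMIs stand for a count of 0. Tpsb2 had 1383 UMIs in 68 mast cells and 0 in basophils (at least 91.7-fold). The log2 ratio of Cpa3 was 3.74 (3.15 to 4.40), so the basophil level was low but above that of every other class.

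Mcpt4 (84 UMIs in 18 mast cells), Tpsg1 (50 UMIs in 28) and the tryptase gene Tpsab1, which this build annotates as a transcribed pseudogene (20 UMIs in 11), had 0 UMIs in basophils. Mcpt4 was therefore found in a minority of mast cells, whereas Cma1 was found in all 69. The other direction held for Mcpt8 (-3.68, -4.98 to -2.52) and for Gzmb, which is best known from killer lymphocytes, with 24 UMIs in 8 mast cells and 21 UMIs in 5 basophils (-2.14, -3.04 to -1.22). Of the 9 protease genes measured, 5 had an interval above 0 and 2 below. The median log2 ratio of the 8 with at least 20 UMIs was 3.51, or 1.48 with 5 UMIs added in place of 1, against 0.29 over all genes with that minimum.

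**Figure D3:**
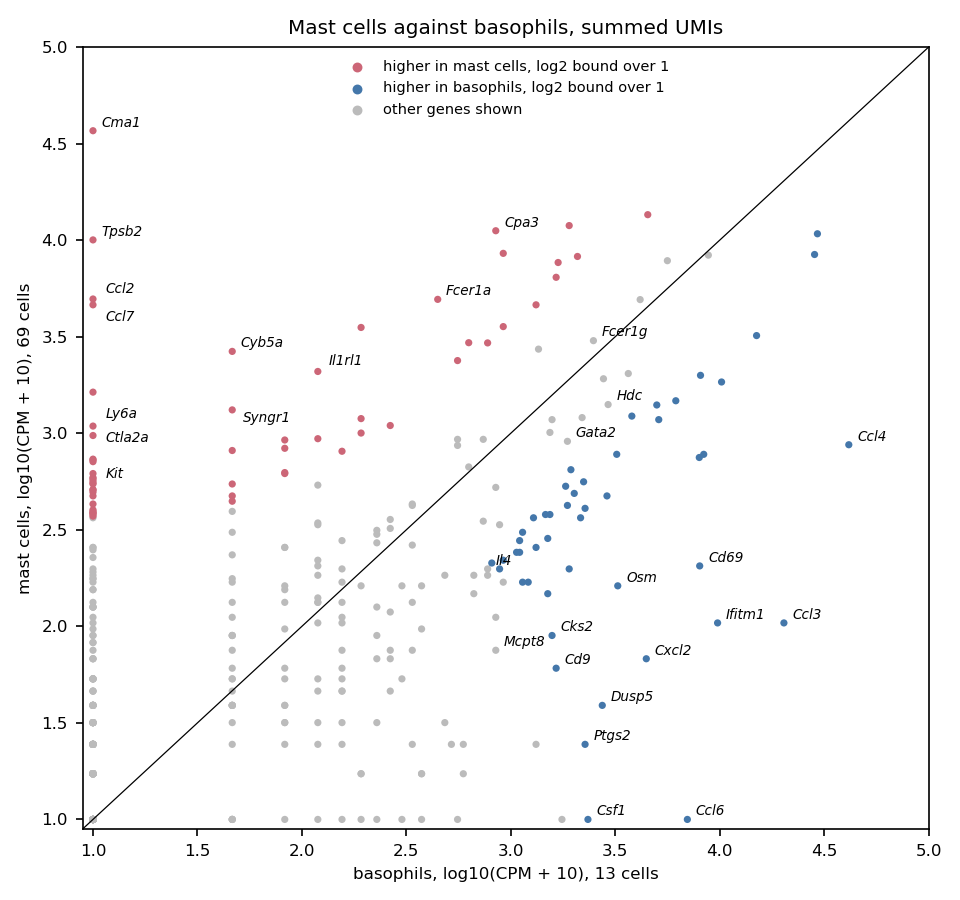
Level of each gene in basophils (horizontal) and in mast cells (vertical), both as log10 of CPM + 10 from summed UMIs, for genes past the call and genes of the lists. Cma1, Tpsb2, Ccl2 and Ccl7 lie on the left edge because basophils have 0 UMIs of them, and Ccl6 and Csf1 lie on the bottom edge because mast cells have 0.

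The IgE receptor was shared, with its chains in different proportion. Fcer1a, the chain that binds IgE, had 680 UMIs in 66 mast cells and 12 in 8 basophils, 4924 against 437 CPM (log2 3.50, 2.68 to 4.46). Ms4a2, the signal-amplifying beta chain, had 71 UMIs in 40 mast cells and 23 in 10 basophils, 514 against 837 CPM, with an interval that includes 0 (-1.40 to 0.04). Fcer1g, the gamma chain common to many Fc receptors, was at 3005 and 2475 CPM and detected in 67 mast cells and all 13 basophils (0.28, -0.09 to 0.67). Outside both classes Fcer1a was at most 7.61 CPM and Ms4a2 at most 2.98 CPM. The adaptors Lat and Lat2 and the kinases Lyn and Syk, which carry the receptor's signal, had intervals that include 0. Of the 15 genes of the receptor and its signalling, 1 (Fcer1a) had an interval above 0 and 1 (Fyn) below.

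Histamine genes were found in both classes. Hdc, histidine decarboxylase, which makes histamine, had 193 UMIs in 49 mast cells and 80 UMIs in 12 basophils, 1397 against 2911 CPM (-1.06, -1.44 to -0.66). Neutrophils, at 1303 CPM, were close to mast cells in this gene. Slc18a2, the carrier that loads amines into granules, was at 348 and 255 CPM (0.45, -0.70 to 1.84). Tph1, tryptophan hydroxylase, the first step to serotonin, had 24 UMIs in 17 mast cells and 0 in basophils. RNA of Hdc and Slc18a2 was thus found in both classes, though the 7 basophil UMIs of Slc18a2 are few. For Tph1, 3 UMIs in basophils would be 109 CPM, below the 174 CPM of mast cells.

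Enzymes of lipid mediators were found in both classes, and 3 differed. Alox5, 5-lipoxygenase, which starts leukotriene synthesis, had 46 UMIs in 30 mast cells and 3 in 2 basophils (1.61, -0.03 to 3.94). Its partner Alox5ap had 165 UMIs in 51 mast cells and 60 in all 13 basophils (-0.87, -1.30 to -0.42). Hpgds, the prostaglandin D2 synthase of mast cells, had 34 UMIs in 25 mast cells and 0 in basophils, at least 2.25-fold higher. Macrophages of class II were close to mast cells in Hpgds, at 217 against 246 CPM. Ptgs2, the inducible cyclooxygenase, had 2 UMIs in 1 mast cell and 62 in 9 basophils (-7.28, -10.4 to -5.37). Its next highest class was the neutrophils, at 803 CPM against 2256 CPM in basophils. Of the 10 enzymes listed, 1 had an interval above 0 and 2 below.

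Chemokines and cytokines separated the classes as sharply as the proteases did, and mostly toward basophils. Of 19 such genes measured, 9 had an interval below 0 and 2, Ccl2 and Ccl7, above. The median log2 ratio of the 11 with at least 20 UMIs was -5.58, or -4.88 with 5 UMIs added. The genes of the list took 78933 CPM of basophil RNA and 11353 CPM of mast cell RNA.

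Ccl2 and Ccl7, monocyte chemoattractants, were the mast cell side. Their genes lie 8.26 kb apart on chromosome 11 (82035577 to 82037452 and 82045712 to 82047525). Ccl2 had 683 UMIs in 56 mast cells and 0 in basophils (at least 45.3-fold), and Ccl7 had 637 UMIs in 33 mast cells and 0 in basophils (at least 42.2-fold). Their mast cell levels of 4945 and 4612 CPM lay above those of the next highest class, macrophages and monocytes of class I, at 799 and 591 CPM. Of the 33 mast cells with Ccl7, 32 also had Ccl2, and of the 36 without Ccl7, 24 had Ccl2. Median depths were 1369 and 1486 UMIs in those sets of cells.

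Ccl3 and Ccl4, inflammatory chemokines, were the basophil side, with Ccl6 and Ccl9. Ccl4 took 4.14% of all basophil UMIs: 1139 UMIs in 13 of 13 basophils and 119 in 21 mast cells (-5.59, -5.87 to -5.31). Ccl3 had 557 UMIs in 13 basophils and 13 in 5 mast cells (-7.75, -8.67 to -6.96). Ccl6 had 192 UMIs in 13 basophils and 0 in mast cells, at least 322-fold higher in basophils. NK cells, known for Ccl3 and Ccl4, were the next highest class for both, at 1296 CPM of Ccl3 against 20270 in basophils and 5597 CPM of Ccl4 against 41450. All 13 basophils had UMIs of Ccl3, Ccl4 and Ccl6 together. Ccl6 was seen in 0.299% of T cells, at 1.30 CPM, so free RNA of this gene was rare.

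Several growth factors and interleukins followed. Csf1, the macrophage growth factor, had 64 UMIs in 11 basophils and 0 in mast cells (at least 107-fold), with neutrophils next at 443 CPM against 2329. Osm, oncostatin M, had 89 UMIs in 12 basophils and 21 in 14 mast cells (-4.41, -5.17 to -3.71). Il6 had 36 UMIs in 10 basophils and 2 in 2 mast cells (-6.50, -9.60 to -4.54), and was at most 12 CPM in any class outside both, against 1310 CPM in basophils. Il4 had 21 UMIs in 9 basophils and 26 in 19 mast cells, 764 against 188 CPM (-2.02, -2.91 to -1.12), and at most 2.64 CPM elsewhere. Of the 13 basophils, 12 had a UMI of Il4 or Il6, and 7 had both. Il1b was highest in neutrophils (10619 CPM). Its 16 basophil UMIs came from 3 cells, 1 of which held 13.

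**Figure D4:**
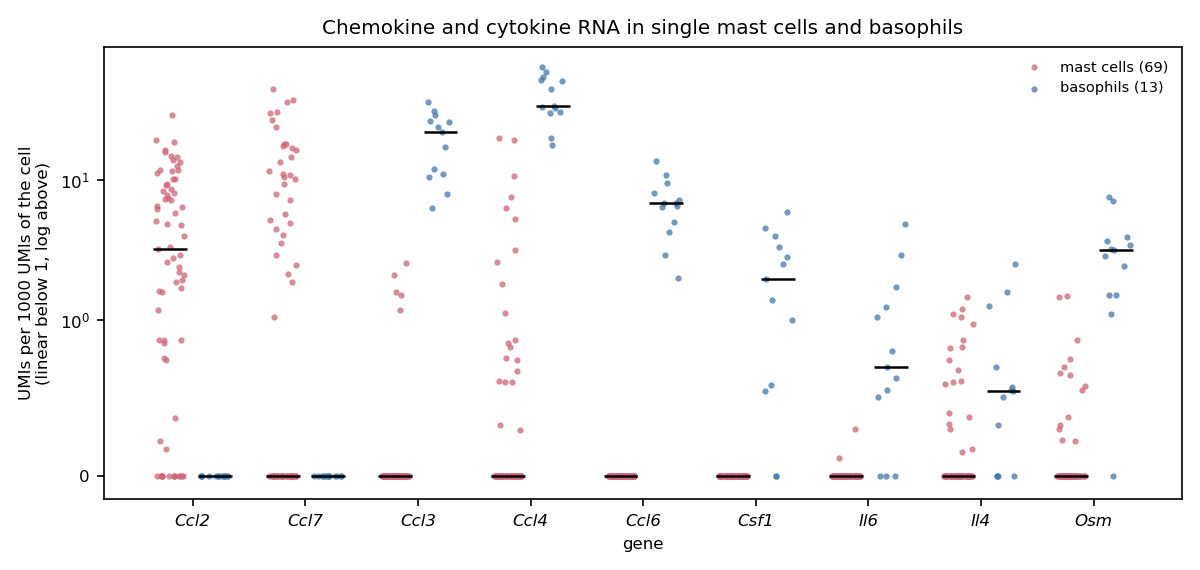
UMIs of 9 chemokine and cytokine genes per 1000 UMIs of each cell (linear below 1, logarithmic above) in 69 mast cells and 13 basophils, 1 point per cell, with the median as a line. Basophils all lie above 0 for Ccl3, Ccl4 and Ccl6 and all at 0 for Ccl2 and Ccl7, and mast cells spread from 0 to over 10 for Ccl2 and Ccl7.

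Receptors also split. Il1rl1, the interleukin 33 receptor ST2, had 287 UMIs in 58 mast cells and 3 in 3 basophils (4.25, 2.69 to 6.54). Mrgprb1 and Mrgprb2, the mast cell receptors of the Mas-related family, of which Mrgprb2 senses basic peptides and drugs, had 97 UMIs in 41 and 51 UMIs in 27 mast cells, and 0 in basophils (at least 6.43-fold and 3.38-fold). Basophils had Il18rap, a chain of the interleukin 18 receptor (15 UMIs in 8 cells, 0 in mast cells), and Csf2rb, the common beta chain for interleukin 3 and GM-CSF (655 against 138 CPM, -2.25, -3.26 to -1.24).

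The receptors of moving granulocytes were on the basophil side too. Cxcr2 had 10 UMIs in 6 basophils and 0 in mast cells, Ccr1 had 16 UMIs in 6 basophils and 1 UMI in mast cells, and C5ar1, the receptor of complement C5a, had 14 UMIs in 7 basophils and 2 in 1 mast cell. Cxcr2 and Ccr1 were highest in neutrophils, at 798 and 733 CPM. Of 20 mediator and chemokine receptors, 3 had an interval above 0 and 6 below, and of 15 cytokine and growth factor receptors 3 above and 5 below. Cd200r3, an activating receptor known on both lineages, was at 340 and 728 CPM (-1.10, -1.88 to -0.26), and of 18 paired and inhibitory receptors 3 had an interval below 0 and 0 above.

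Adhesion genes were higher in basophils where they differed, 7 of 15 with an interval below 0 and 0 above. Only 3 of the 15 had at least 20 UMIs, and intervals of low genes exclude 0 more readily toward basophils. They included Cd9, a tetraspanin (45 UMIs in 10 basophils and 7 in 5 mast cells, -5.01, -6.41 to -3.85), the integrin chains Itgam (13 and 3 UMIs) and Itga2, the CD49b antigen used to stain basophils (6 UMIs in 6 basophils, 0 in mast cells), and Itgal, Cd44 and L1cam. Of 14 granule matrix and release genes, 2 had an interval above 0 and 1 below. Srgn, serglycin, the core protein on which granule heparin is built, was at 8348 and 8807 CPM (-0.08, -0.28 to 0.13). Cd63, a granule membrane protein that reaches the surface on release, was at 2715 and 1346 CPM (1.01, 0.52 to 1.54). Rab27b, a regulator of granule release, had 53 UMIs in 34 mast cells and 0 in basophils.

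Among transcription factors, Gata2, needed by both lineages, was at 898 CPM in mast cells and 1856 CPM in basophils (-1.05, -1.53 to -0.55), and at most 54.8 CPM elsewhere. Mitf, a mast cell factor, had 17 UMIs in 11 mast cells and 0 in basophils, with an interval that includes 0. Cebpa, which favours basophils over mast cells, had 4 UMIs in 4 basophils and 0 in mast cells, and Cebpb had 79 UMIs in 12 basophils and 64 in 28 mast cells (-2.63, -3.13 to -2.14). Id2, an inhibitor of helix-loop-helix factors, had 58 UMIs in 29 mast cells and 0 in basophils (at least 3.85-fold). Of 22 factors, 1 had an interval above 0 and 8 below.

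The remaining genes past the call included some outside these lists. Higher in mast cells were Cyb5a, cytochrome b5 (365 UMIs in 57 mast cells and 1 in 1 basophil, 6.18, 3.70 to 11.5), Ly6a, the Sca-1 antigen (149 and 0), Ctla2a, a cysteine protease inhibitor (133 and 0), and Syngr1, a vesicle membrane protein (181 and 1). Higher in basophils were Ifitm1 (268 UMIs in 13 basophils and 13 in 3 mast cells, -6.70, -7.62 to -5.90), Cd69, an early activation antigen (220 in 13 and 27 in 14, -5.36, -5.99 to -4.78), Dusp5, a phosphatase of ERK (75 in 11 and 4 in 3), Cks2 (43 in 6 and 11 in 9) and Cxcl2 (122 UMIs in only 4 basophils). Cyb5a was also at 1304 CPM in follicular granulosa cells.

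Cyp11a1, the enzyme that starts steroid synthesis from cholesterol, was found in both classes. It had 24 UMIs in 9 basophils and 26 in 15 mast cells, 873 against 188 CPM (-2.21, -3.07 to -1.35). In this tissue its main source is elsewhere, 7274 CPM in the class named luteinized granulosa. Star, the cholesterol carrier of steroid cells, was at 431 CPM in that class and had 0 UMIs in basophils and in mast cells. That class held 60743 UMIs of Cyp11a1 and 3597 of Star. The part of free RNA in the Cyp11a1 counts was not tested beyond the T cell level, which was 20.8 CPM with a UMI in 4.48% of T cells.

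Mitochondrial RNA and activation genes differed between the classes as well. Mitochondrial genes took a median of 4.66% of the UMIs of a mast cell, 0.799% of a basophil and 0.239% of a neutrophil. Of 12 mitochondrially encoded genes 11 had an interval above 0, with a median log2 ratio of 2.16, and of 16 nuclear genes of oxidative phosphorylation 3 had one above 0 and 0 below. Of 20 genes of dissociation stress and the immediate early response, 13 had an interval below 0 and 3 above, with a median of -1.45. Nfkbia, the inhibitor induced by NF-kB, was at 7970 CPM in basophils and 739 CPM in mast cells, and Junb at 8079 and 1984 CPM. Fos and Klf2 went the other way, at 7813 CPM in mast cells against 5604 in basophils (0.48, 0.23 to 0.73) and 2932 against 619 CPM (2.25, 1.55 to 3.04). The cells were digested for 30 min at 37 °C, and the part of that step in the levels of these genes was not tested. Of 16 cell cycle genes, 0 had an interval that excluded 0. Mki67 had 1 UMI and Top2a had 0. Interferon genes (1 of 12 above 0, 0 below), glycolysis genes (1 of 14 above, 2 below) and profibrotic mediators (0 of 11 above, 2 below) added few differences.

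Within mast cells the conditions were compared on summed UMIs: 31933 in 13 young, 51165 in 26 aged and 55011 in 30 metformin cells. Before the values, the cells need a word. Of the 69 mast cells, 9 carried at least 10 UMIs of 101 markers of other cell types (fibroblast, macrophage, dendritic, steroid and other cells) or more than 3 times the median UMI total, a rule set after seeing the data. They were 4 young cells holding 70.2% of the young UMIs, 3 aged cells with 18.7% and 2 metformin cells with 18.7%. The summed level of those markers was 5637 CPM in young, 1466 in aged and 1654 in metformin mast cells. By the markers 8 of the 9 cells were flagged. The other, a young cell of pool A, had 3 UMIs of those markers and was flagged by its total of 6550 UMIs alone. Basophils had 0 cells of either kind. Ratios to young mast cells are therefore mostly given with all cells and then without these 9 cells, and other values with all cells unless stated.

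Single genes differed between aged and young mast cells beyond their counting intervals, among them Fcer1a, Ccl2, Ccl7 and several proteases. Among 547 genes with at least 20 UMIs, the interval lay beyond 0.58 on the log2 scale for 37 genes higher in aged (6.76%) and 24 lower (4.39%). Without the cells of mixed signal 12 were higher and 9 lower. Without pool A the counts were 20 and 7, and without pool B 22 were higher. Pool against pool within 1 condition, between 1.66% and 13.2% of genes passed the same call, and an interval excluded 0 in 14.4% to 37.7% of genes, against 32.4% for aged and young. The share of 32.4% lay inside the range seen between pools of 1 condition. Those pairs had 3 to 12 cells on a side and 114 to 264 genes, so the shares are not on equal terms. The number of differing genes is therefore not read as setting the conditions apart. The intervals understate the spread, and counts are read beside it.

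The chemokine pair showed the clearest difference in detection. Ccl7 was found in 1 of 13 young, 16 of 26 aged and 16 of 30 metformin mast cells, at 595, 5844 and 5799 CPM. All 19 young UMIs were in 1 cell of pool A, the young cell flagged by depth alone, which showed few markers of other types. Without it and the other flagged cells young mast cells had 0 UMIs and aged ones 299, a log2 difference of at least 4.51. The young value of 0 thus rests on leaving out that cell. With every cell thinned to 500 UMIs, Ccl7 was seen in 1 of 13 young, 15 of 26 aged and 15 of 30 metformin cells. Ccl2 was found in 5 of 13, 23 of 26 and 28 of 30 cells, at 1127, 5551 and 6599 CPM. Its aged to young log2 ratio was 2.30 (1.80 to 2.84), and 1.91 (1.16 to 2.77) without the mixed cells. In the latter set 1 young cell of pool B held 14 of the 15 young UMIs. In T cells of the same conditions, where free RNA sets the level, Ccl7 was 3.25, 6.52 and 3.49 CPM and Ccl2 16.2, 6.52 and 13.5 CPM.

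By pool, Ccl7 in pools A, B and C was 1051, 0 and 0 CPM in young, 9077, 9604 and 1904 CPM in aged, and 5841, 11772 and 1688 CPM in metformin mast cells. Every aged and metformin pool was above every young pool for Ccl7. Pool C was the lowest pool of both older conditions.

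Fcer1a was 1127 CPM in young, 6039 in aged and 6090 in metformin mast cells, and found in 10 of 13, 26 of 26 and 30 of 30 cells. The aged to young log2 ratio was 2.42 (1.92 to 2.96) and 1.53 (0.88 to 2.27) without the mixed cells. In pools A, B and C the Fcer1a level was 1162, 1896 and 497 CPM in young, 4330, 7203 and 6166 CPM in aged, and 8469, 5268 and 4841 CPM in metformin. The highest young pool was below the lowest older pool. Ms4a2 and Fcer1g, the other chains, had intervals that include 0 (0.25, -0.93 to 1.51, and 0.39, -0.00 to 0.80).

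The major granule proteases had higher levels in aged than in young mast cells, by amounts that depended on the mixed cells. Cma1 was 15125 CPM in young, 41982 in aged and 44664 in metformin cells, and had a UMI in each of the 69 cells. Its aged to young log2 ratio was 1.47 (1.33 to 1.62), and 0.62 (0.44 to 0.80) without the mixed cells. For Cpa3 the log2 ratio was 1.42 (1.16 to 1.69) and 0.58 (0.27 to 0.91), from 4697, 12567 and 13634 CPM. For Tpsb2 the log2 ratio was 1.97 (1.68 to 2.26) and 0.80 (0.47 to 1.14), from 3601, 14072 and 9962 CPM. Each of the 3 intervals stayed above 0, and each log2 ratio was closer to 0 without these 9 cells, whose part in the result was not tested further. Without them the pools overlapped. Cma1 in pools A, B and C was 22530, 42742 and 31773 CPM in young and 49800, 47419 and 40586 CPM in aged cells. Young pool B, with 2 cells, was also above aged pool A for Cpa3 (14388 against 12991 CPM) and for Tpsb2 (14812 against 9494 CPM).

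Minor proteases differed in which cells held them. Mcpt4 was found in 1 of 13 young, 9 of 26 aged and 8 of 30 metformin cells. It had 1, 29 and 54 UMIs, 27 of the last in 1 cell. The aged to young log2 ratio was 4.18 (1.59 to 9.53), with 28 against 0 UMIs without the mixed cells. The 1 young UMI of Mcpt4 was in the young cell flagged by depth alone. Gzmb went the other way, in 5 of 13 young, 1 of 26 aged and 2 of 30 metformin cells, with 18, 1 and 5 UMIs (-4.85, -10.2 to -2.19, and -6.30, -11.7 to -3.63 without the mixed cells). Thinned to 500 UMIs, Gzmb was seen in 30.8%, 0% and 0% of cells and Mcpt4 in 0%, 34.6% and 26.7%. T cells, which make Gzmb, had it at 205, 80.4 and 61.4 CPM, and their Mcpt4 was 0, 0 and 2.0 CPM. Of the 9 proteases, 5 had an interval above 0 and 1 below with all cells, and 4 and 2 without the mixed cells. Over all 7909 genes with a UMI in either condition, 1.67% had an interval above 0 and 2.58% below. Most of these have few UMIs, and among the 547 genes with at least 20 UMIs 16.5% lay above 0 and 15.9% below.

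The Mas-related receptors had few young UMIs. Mrgprb1 had 37 UMIs in 16 aged cells and 4 in 1 young cell, and Mrgprb2 had 23 in 15 and 2 in 1. Outside the mixed cells these were 36 against 0 and 19 against 0. The 2 young UMIs of Mrgprb2 were in the young cell flagged by depth alone. Kit did not differ beyond its interval, at 626, 665 and 836 CPM and in 8 of 13, 15 of 26 and 17 of 30 cells (0.09, -0.75 to 0.96, and -0.40, -1.46 to 0.78). Hdc was 1221, 977 and 1891 CPM (-0.32, -0.95 to 0.32). Without the mixed cells the Hdc interval lay below 0 (-1.34, -2.09 to -0.57), but 1 young cell held 18 of the 25 young UMIs. Leaving that cell out too, Hdc was 887 CPM in 8 young and 1033 CPM in 23 aged cells, the opposite direction.

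Other named genes were of mixed kinds. Syngr1 was counted 84 times in 18 aged cells and 5 times in 2 young ones (3.39, 2.11 to 5.05), and 75 against 0 without the mixed cells. Cyp26a1, which degrades retinoic acid, had 36 UMIs in 14 of 26 aged cells, 0 in 13 young cells and 13 in 8 of 30 metformin cells, and the mast cells held 80.3% of all its UMIs in the series. AA467197 had 45 against 2 UMIs, in 5 and 2 cells (3.81, 1.88 to 6.90). Of 20 stress and immediate early genes, 8 had an interval above 0 and 6 below with all cells, and 3 and 4 without the mixed cells, so the list had no single direction. Mitochondrial genes took a median of 3.61% of UMIs in young, 4.20% in aged and 5.84% in metformin mast cells.

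Of the genes named as lower in aged mast cells, Nr4a1, an immediate early nuclear receptor, had 7 UMIs in 5 cells against 27 in 9 (-2.63, -4.07 to -1.39, and -3.13, -4.68 to -1.72 without the mixed cells), and Ptma 52 against 97 (-1.58, -2.09 to -1.08, and -0.97, -1.83 to -0.05). Tmsb10 had 34 young UMIs, or 3 without the mixed cells. Col3a1, a collagen of fibroblasts, had 31 young UMIs and Btg2 21, against 0 and 1 without the mixed cells, so both values rest on those cells.

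**Figure D5:**
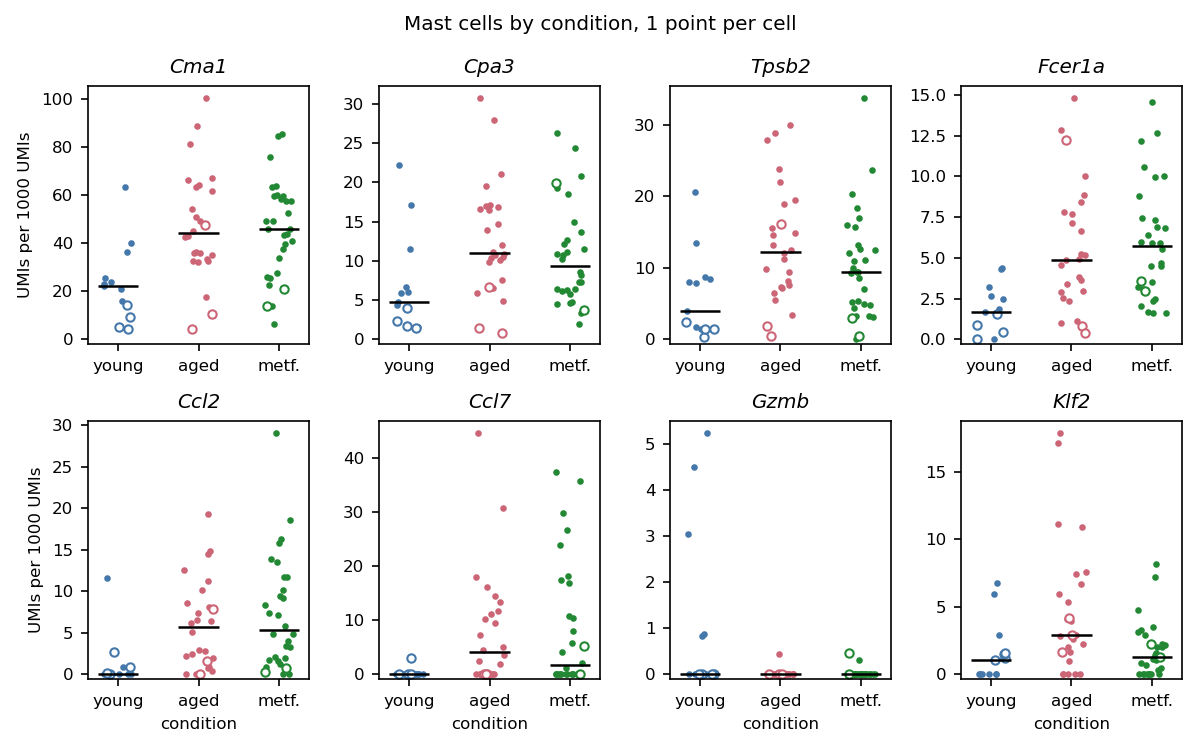
UMIs of 8 genes per 1000 UMIs of each mast cell by condition, 1 point per cell, with the median as a line. Open circles are the 9 cells of mixed signal, and "metf." is metformin. Young cells sit low for Fcer1a, Ccl2 and Ccl7 and hold most of the cells with Gzmb, and Klf2 reaches its highest values in aged cells.

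Metformin and untreated aged mast cells were close. Among 706 genes, 1 was higher (0.142%), a ribosomal protein gene, and 4 were lower (0.567%) by the same call, and an interval excluded 0 in 12.2% of them, fewer than for any pair of pools within 1 condition (14.4% to 37.7%). Without the mixed cells 0 were higher and 5 lower, among 568 genes. Of 12 mitochondrially encoded genes, 3 had an interval above 0 with all cells and 6 without the mixed cells, and 0 below in both. Without pool A 3 were higher, without pool C 2 were higher, and without pool B 1 was lower. The share of genes called here was below that of every pair of pools, the lowest of which was 1.66% on fewer genes. The pool pairs also had fewer cells, so these shares are not on equal terms.

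Klf2, a factor of quiescence that dissociation also induces, was 5140 CPM in aged and 1727 CPM in metformin cells (-1.57, -1.93 to -1.23), beside 1472 CPM in young. In pools A, B and C Klf2 was 6829, 5869 and 3849 CPM in aged and 1343, 2211 and 1688 CPM in metformin cells, so the pools did not overlap. In T cells Klf2 was 1158 CPM in young, 714 in aged and 388 in metformin. Cd69 had 20 UMIs in 8 aged and 4 in 4 metformin cells (-2.43, -4.43 to -0.85), the heat shock partner Dnaja1 had 42 in 17 and 15 in 10 (-1.59, -2.55 to -0.71), and Cyp26a1 had 36 in 14 and 13 in 8 (-1.57, -2.61 to -0.62). Of 20 stress and immediate early genes, 7 had an interval below 0 and 0 above. Without the mixed cells 9 lay below 0 and 0 above. With all cells the median of these genes was -0.49, against 0.00 over all genes with that minimum of 20 UMIs. Among those 706 genes, 6.66% had an interval above 0 and 5.52% below. Over all 8123 genes with a UMI, most with fewer UMIs than that, 0.948% lay on each side. Fos was 9850 and 5853 CPM (-0.75, -0.96 to -0.55). In aged and metformin T cells Fos was 911 and 580 CPM, Cd69 723 and 521 CPM, and Dnaja1 763 and 674 CPM. Ier3 went the other way in T cells, at 229 and 380 CPM. Lower levels of Fos, Cd69 and Dnaja1 with metformin were thus not particular to mast cells, and their cause was not tested.

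Of the genes above, Ccl7, Fcer1a, Cma1 and Cpa3 were at like levels in aged and metformin cells, as was Syngr1 (1642 and 1672 CPM). Cyp26a1 was lower with metformin, and AA467197 was 880 CPM in aged and 400 CPM (22 UMIs in 12 cells) in metformin cells. The log2 ratio was -0.01 for Ccl7 (-0.24 to 0.22), 0.01 for Fcer1a (-0.22 to 0.24), 0.09 for Cma1 (0.01 to 0.17) and 0.12 for Cpa3 (-0.04 to 0.27). These comparisons share the aged cells. Tpsb2 was lower with metformin (-0.50, -0.66 to -0.34), and Hdc (0.95, 0.45 to 1.47) and Ms4a2 (1.04, 0.23 to 1.90) were higher, without passing the call. Kit was 0.33 (-0.34 to 1.02).

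The basophils of the 3 conditions are given as values only. Ccl4 was 40860 CPM in 5 young, 48491 in 4 aged and 32745 in 4 metformin basophils, with cells from 25 to 188 UMIs, and Ccl3 was 20216, 23908 and 15470 CPM, each found in every cell. Ccl6 was 6632, 7327 and 6961 CPM. Levels of these chemokines were thus of the same order in all 3 conditions. Il4 had 2 UMIs in 2 of 5 young cells, 15 in 4 of 4 aged cells and 4 in 3 of 4 metformin cells. Il6 had 11 UMIs in 4 young cells, 9 in 4 aged cells and 16 in 2 metformin cells, 15 of them in 1 cell. Mcpt8 had 3, 9 and 11 UMIs, in 2, 2 and 3 cells. With 1 cell able to hold most of a gene's UMIs, no order of conditions can be read from these values.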

How the data were processed

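Droplet single-cell RNA libraries (10x Genomics, with MULTI-seq tags for the conditions) were made from 3 pools. Reads were counted with Cell Ranger 3.0.2 on GRCm38, per the submitters' processing notes. The authors deposited a matrix of raw UMI counts per gene and cell, and a cell table with condition, pool, cell class and clusters, per the file headers. The deposited table also gives the mitochondrial percent of each cell, which differed from the value recomputed from the counts in 0 cells (tolerance 1e-06). No cell was removed here. The lowest cell total was 500 UMIs, and the deposited doublet column marked 0 cells.

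UMIs were summed per class, condition and pool with Python 3.11.15, pandas 2.3.3, numpy 2.4.6 and scipy 1.17.1. Shares carry exact Clopper-Pearson 95% intervals, ratios exact conditional binomial ones and CPM exact Poisson ones, all for counting error only. A count of 0 is bounded by 3 UMIs. Each condition is 1 sample, so there is no test and no p-value.

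Between classes a gene needed 50 UMIs and an interval bound beyond 1 on the log2 scale, and between conditions 20 UMIs and a bound beyond 0.58. List medians used 1 added UMI and genes with at least 20 UMIs. Named genes were up to 12 per direction between classes, with the same sign in each pool with at least 5 cells of both, and up to 5 per direction between conditions, with no cell over 50% of the UMIs and the same sign in each pool with at least 2 cells of both. Genes of the 18 function lists and 20 marker lists were named as well, and a few genes of these sets are not reported here. The members and lists were chosen with earlier results of these data known. Alternatives were other minimum counts, thinning, scaling, added UMIs, leaving out a pool and leaving out cells of mixed signal. The calls were tested on simulated data with counting error only, drawn from 1 shared profile. Spread between cells or pools was not simulated, so that test does not cover it. Promoters came from RefSeq (GRCm38.p6), and figures were drawn with matplotlib 3.10.9.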

Additional observations from a re-analysis of the deposited data

Results flagged for a closer look

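Cma1 had a signal outside the mast cells and basophils, above its level in the control class. In the class of NK cells and innate lymphoid cells it was at 126 CPM, with a UMI in 165 of 843 cells (median 2329 UMIs per cell), against 12.7 CPM in 1675 T cells (median 1982 UMIs). No NK cell held more than 7 UMIs. There were 14.9 UMIs of Cma1 for each UMI of Cpa3 in the NK class (9.40 to 25.2) and 3.30 in mast cells (3.11 to 3.49). By condition the NK level was 171 CPM in young, 112 in aged and 47.0 in metformin, and the T cell level 13, 14.1 and 12 CPM. The cause was not tested.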

How the results depend on the processing

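Each ratio of mast cell or basophil shares kept its direction under the alternatives run wherever its interval excluded 1, and no interval came to include or exclude 1. Counts of genes called depended on depth. Between classes (57 higher in mast cells, 48 in basophils) they were 24 and 22 with cells thinned to 1000 UMIs, 33 and 27 with a minimum of 100 UMIs, 156 in basophils with a minimum of 10, and 30 to 48 and 24 to 41 with a pool left out. For aged against young mast cells (37 and 24) they were 7 and 2 thinned, 17 and 6 with a minimum of 100, 48 lower with a minimum of 10, 20 to 32 and 7 to 26 with a pool left out, and 12 and 9 without cells of mixed signal, an alternative chosen after seeing the data. For metformin against aged (1 and 4) they were 1 lower thinned, and 3 and 7 with a minimum of 10. They were 1 lower with a minimum of 100, and 1 to 3 and 1 to 6 with a pool left out. Without cells of mixed signal they were 0 and 5.

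Of the values of named genes, 138 of 207 between classes, 69 of 86 for aged against young and 36 of 36 for metformin against aged stayed within the interval of the reported value, and 0 reversed. A mean over cells gives no ratio for a gene at 0 in a group. Between classes the median of the glycolysis list was 0.48, but -0.49 with 5 UMIs added and -0.22 without pool B. No paired analysis was possible because each condition is 1 sample and no test was made. With 13 young mast cells and 13 basophils, a gene with few UMIs can rest on 1 cell, and the intervals do not cover differences between animals.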

Other observations

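The mast cells with Ccl7 differed in other genes from those without it, in counts given with no test. Mcpt4 was found in 13 of the 33 mast cells with Ccl7 and in 5 of the 36 without. Mrgprb1 was found in 25 of 33 and 16 of 36, Il4 in 5 of 33 and 14 of 36, and Gzmb in 1 of 33 and 7 of 36. Within aged and metformin cells alone, where depth differed (medians of 1360 and 2245 UMIs), the counts were 12 of 32 and 5 of 24 for Mcpt4, 24 of 32 and 16 of 24 for Mrgprb1, 5 of 32 and 9 of 24 for Il4, and 1 of 32 and 2 of 24 for Gzmb. In aged cells alone Gzmb was in 1 of 16 and 0 of 10, and 5 of the 8 mast cells with Gzmb were young.

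Across the 20 deposited classes, the genes whose levels ranked most like Cpa3 were Rabac1 (Spearman's rho 0.70), Il1rl1 (0.68), Igkc (0.65), Selenok (0.64) and Sec11c (0.58). Those most like Mcpt8 were Tpsg1 (0.79), Selenok (0.59), Il1rl1 (0.58), Ms4a2 (0.54) and Syngr1 (0.54). Classes share libraries and differ in depth, so these are descriptions. Most classes hold few UMIs of Mcpt8, which leaves its ranks mostly tied.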
